A study of Mus musculus with 18 samples.

Results

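The lipolysis genes described here were 9 genes chosen by name: the lipases Pnpla2, Lipe and Mgll, the lipase cofactors Abhd5 and G0s2, the phosphodiesterase Pde3b, and the adrenergic receptors Adrb1, Adrb3 and Adra2a. A gene was read from a probe set that names it alone, and from the one with the highest mean over all arrays where there were several. By this rule 6 of the 9 genes were measured, of 19938 single genes on the array: Pnpla2 (probe set 10558921), Abhd5 (10590452), G0s2 (10361246), Lipe (10561031), Mgll (10539894) and Pde3b (10556528). The 3 receptors were not analysed here, because the annotation used names no probe set for them, so the adrenergic arm is described only through genes of its signalling chain.

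Bone marrow adipocytes of 6, 14 and 18 months and epididymal white adipocytes of 6, 14 and 18 months were compared, with 3 arrays in each of the 6 groups. All mice were untreated C57BL/6J males on standard chow. Marrow flushed from femurs and tibias was cleared of red cells by lysis and spun, and the floating layer was kept, whereas epididymal fat was digested with collagenase before flotation; neither fraction was sorted. Per the study both depots came from the same mice, but no source used here says that equally numbered pools of the depots held the same animals. Each array carried a pool of RNA, with 6 to 10 animals behind the 3 pools of each group, so that p-values measure the spread between pools and not between mice.

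Stored triglyceride is broken down in steps. Pnpla2 (adipose triglyceride lipase) releases the first fatty acid, Abhd5 (CGI-58) activates it and G0s2 inhibits it. Lipe (hormone-sensitive lipase) then cleaves diacylglycerol, and Mgll (monoacylglycerol lipase) splits the remaining monoacylglycerol into a fatty acid and glycerol. In white adipocytes beta-adrenergic receptors raise cAMP and switch on protein kinase A, which phosphorylates Lipe and the droplet coat protein Plin1, while insulin restrains the pathway in part through Pde3b, which hydrolyses cAMP.

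The sequences before the start sites are shown for the gene with the widest gap between the depots (Lipe, which has a pair of start sites in the table), for Pnpla2, which like Lipe was lower in marrow at 18 than at 14 months, and for the Pnpla2 cofactors Abhd5 and G0s2. Each is the 250 bases before a RefSeq start site of the build GRCm38.p6, 5′ to 3′ on the gene's strand, and capitals mark matches on either strand to 5 motifs: AGGTCA (a nuclear receptor half-site), TGACG (the core of a cAMP response element), GGGCGG (a GC box), TGTTTAC (a forkhead motif) and TTGCNNAA (a C/EBP motif). Overlapping matches share one run of capitals.
Pnpla2 (chr7:141454938-141455187, plus strand): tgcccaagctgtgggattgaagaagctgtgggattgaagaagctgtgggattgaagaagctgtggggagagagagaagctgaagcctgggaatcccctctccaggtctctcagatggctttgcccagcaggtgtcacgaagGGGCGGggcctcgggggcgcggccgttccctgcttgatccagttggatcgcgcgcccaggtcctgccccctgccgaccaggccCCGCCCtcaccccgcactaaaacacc
Abhd5 (chr9:122351366-122351615, plus strand): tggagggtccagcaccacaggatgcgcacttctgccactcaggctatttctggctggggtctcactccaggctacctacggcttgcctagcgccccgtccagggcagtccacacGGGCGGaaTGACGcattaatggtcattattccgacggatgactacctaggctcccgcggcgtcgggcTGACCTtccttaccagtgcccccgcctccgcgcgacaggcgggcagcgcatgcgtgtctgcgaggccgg
G0s2 (chr1:193273189-193273438, minus strand): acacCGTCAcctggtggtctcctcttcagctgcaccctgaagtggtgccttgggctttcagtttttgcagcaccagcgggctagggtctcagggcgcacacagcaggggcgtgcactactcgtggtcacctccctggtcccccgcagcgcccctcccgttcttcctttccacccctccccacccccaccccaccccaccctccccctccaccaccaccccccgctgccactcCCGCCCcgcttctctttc
Lipe, upstream start (chr7:25395988-25396237, minus strand): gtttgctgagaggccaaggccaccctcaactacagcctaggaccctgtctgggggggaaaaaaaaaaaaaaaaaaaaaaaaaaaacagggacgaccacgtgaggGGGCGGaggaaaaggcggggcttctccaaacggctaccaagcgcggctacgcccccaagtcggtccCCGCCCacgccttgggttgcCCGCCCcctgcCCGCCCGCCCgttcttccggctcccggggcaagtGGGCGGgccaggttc
Lipe, downstream start (chr7:25390113-25390362, minus strand): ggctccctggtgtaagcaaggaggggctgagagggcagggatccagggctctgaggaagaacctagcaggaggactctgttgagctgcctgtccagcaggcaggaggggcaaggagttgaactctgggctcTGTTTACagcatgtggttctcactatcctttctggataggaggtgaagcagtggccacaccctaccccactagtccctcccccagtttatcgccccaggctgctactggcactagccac
Of 32851 promoter windows of the same length, 14.0% hold the nuclear receptor half-site, 17.8% the cAMP response element core, 32.7% the GC box, 3.17% the forkhead motif and 9.56% the C/EBP motif. The window of Pnpla2 held 2 GC boxes and the upstream window of Lipe 6, of which 1 pair overlaps, while the downstream window of Lipe held 1 forkhead motif and no GC box. Abhd5 held 1 half-site, 1 cAMP response element core and 1 GC box, and G0s2 held 1 cAMP response element core and 1 GC box. A match is a run of letters and not evidence that a factor binds there. Promoter windows were matched for 5 of the 6 measured genes, Pde3b being the exception.

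Before the results, the labels were set against cell type markers. All 17 mature adipocyte markers measured were lower in the bone marrow fraction at adjusted p under 0.05, with log2 differences of -8.37 (Lep) to -1.30 (Cidea) and a median of -5.16, and their mean log2 signal ran between 6.32 and 6.87 on bone marrow arrays, against 11.32 to 11.89 on epididymal arrays. Adipoq, which encodes adiponectin, had 6.43 to 9.05 in bone marrow and 12.22 to 12.87 in epididymal adipocytes. The leptin gene Lep lay between 3.98 and 5.59 in bone marrow, where the medians of all arrays were 5.33 to 5.65, against 12.66 to 13.00 in epididymal adipocytes. All 15 neutrophil markers and all 9 erythroid markers were higher in bone marrow, by medians of 5.83 and 4.51. On the log2 scale the mean of the neutrophil list was 11.39 to 12.07 on bone marrow arrays and 5.28 to 8.66 on epididymal arrays, where epididymal replicate 1 at 6 months was the highest (the other 8 were between 5.28 and 6.97). In bulk RNA of this kind, fewer adipocytes among the cells and less of a transcript in each adipocyte cannot be told apart, which holds for every difference between the depots given here. Signal from adipocytes and signal from other cells of an unsorted fraction cannot be told apart either. Which cells gave the marrow signal of a lipolysis gene was therefore not determined. One bone marrow array also stood apart: replicate 1 at 6 months differed from replicates 2 and 3 by a root mean square of 0.509 and 0.522 on the log2 scale, against 0.352 between those.

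**Figure D1:**
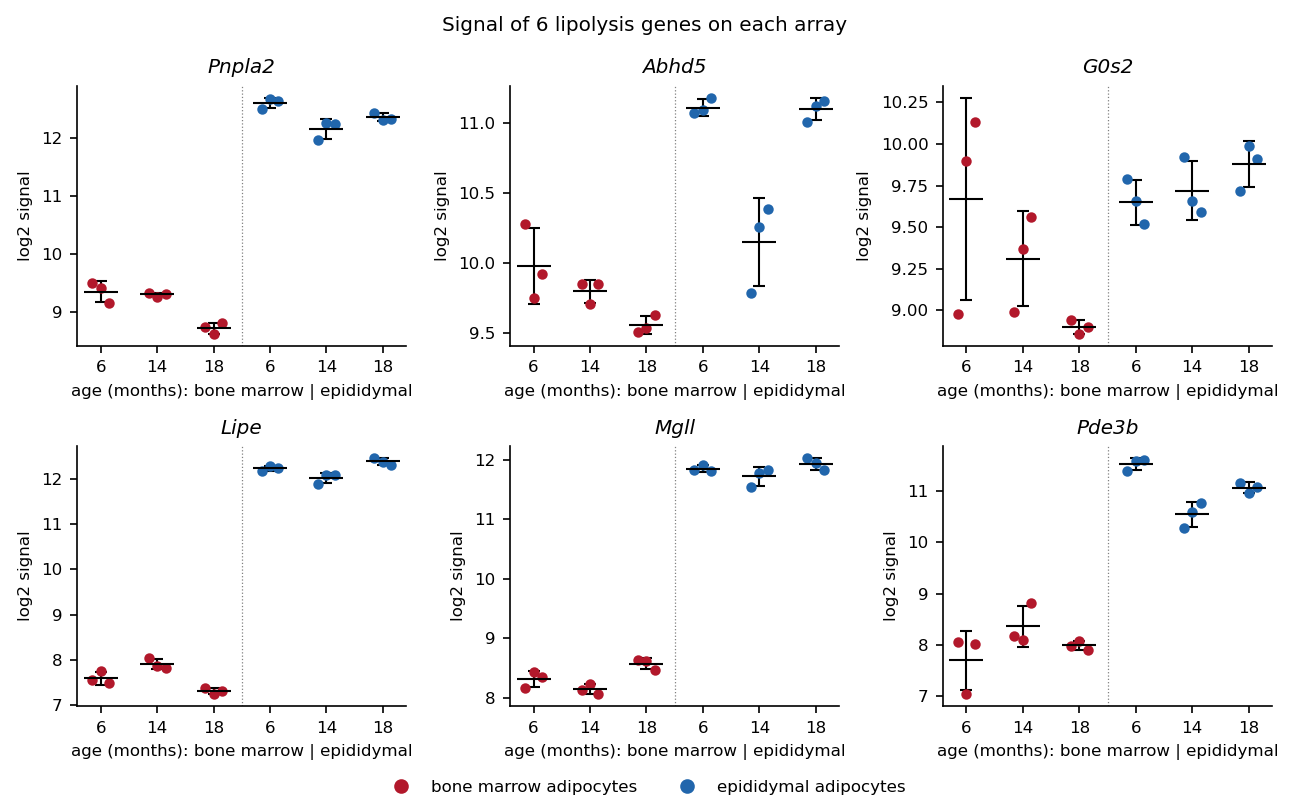
Log2 signal of the 6 measured lipolysis genes on each of the 18 arrays, with 1 point for each array, bone marrow adipocytes in red on the left of each panel and epididymal adipocytes in blue on the right, by age in months; black bars are the group mean and SD (n = 3), and each panel has its own axis. For Lipe, Mgll, Pnpla2 and Pde3b every bone marrow array lies below every epididymal array, whereas the depots overlap for G0s2 and, at 14 months, for Abhd5. The share of all probe sets without overlap of the depots was not computed, so nothing is read from this.

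Between the depots, 5 of the 6 genes had a signal at least 2-fold lower in bone marrow adipocytes over the ages at adjusted p under 0.05 (limma, Benjamini-Hochberg over 23410 probe sets), a call that 11.6% of all probe sets met in this direction and 10.2% in the other. The median of the 6 differences was -3.14, against -0.02 over all probe sets. The same call took in 5 of 6 at 6 months (11.8% of all probe sets), 4 of 6 at 14 months (11.5%) and 5 of 6 at 18 months (12.9%). With arrays centred on ribosomal protein genes, of which 33 of 37 were higher in bone marrow, the split over all probe sets moved to 1222 higher and 6323 lower, against 2380 higher and 2713 lower as deposited, and the median of all differences to -0.73. Under that scaling all 6 lipolysis genes passed, G0s2 included. With quantile normalization repeated, and with arrays centred on their medians, 4 of 6 passed.

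Pnpla2, the lipase of the initial step, had log2 signals of 9.50, 9.42 and 9.15 at 6 months, 9.33, 9.26 and 9.31 at 14 months and 8.73, 8.62 and 8.81 at 18 months in bone marrow adipocytes. In epididymal adipocytes it had 12.51, 12.68 and 12.64 at 6 months, 11.97, 12.27 and 12.25 at 14 months and 12.44, 12.31 and 12.34 at 18 months. No array of bone marrow came within the epididymal range. The difference over the ages was -3.25 ± 0.0663 (SE, adjusted p = 1.85e-18), a 9.53-fold lower signal in bone marrow, and it was -3.25 at 6, -2.86 at 14 and -3.64 at 18 months.

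Abhd5, the coactivator of Pnpla2, differed less. It had 10.28, 9.75 and 9.92 at 6 months, 9.85, 9.71 and 9.85 at 14 months and 9.51, 9.54 and 9.63 at 18 months in bone marrow, against 11.07, 11.09 and 11.18 at 6 months, 9.79, 10.26 and 10.39 at 14 months and 11.01, 11.12 and 11.16 at 18 months in epididymal adipocytes. The depots were apart at 6 and 18 months, and at 14 months the lowest epididymal array lay among the bone marrow arrays. Over the ages Abhd5 was 2.01-fold lower in bone marrow (-1.0 ± 0.0835, SE, adjusted p = 2.31e-09), so it passed the fold limit by little, and leaving out 1 array at a time left 4 genes past it in 9 of 18 cases. By age the differences were -1.13 at 6 months, -0.35 at 14 months, where the adjusted p was 0.0596, and -1.54 at 18 months. Without epididymal replicate 1 at 14 months the difference at that age was -0.52 with an adjusted p of 0.00407.

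G0s2, the inhibitor of Pnpla2, had means of 9.67 in bone marrow adipocytes and 9.65 in epididymal adipocytes at 6 months. Its bone marrow values were 8.98, 9.90 and 10.13 at 6 months, 8.99, 9.37 and 9.56 at 14 months and 8.94, 8.86 and 8.90 at 18 months, and its epididymal values were 9.79, 9.66 and 9.52, then 9.92, 9.66 and 9.59, then 9.72, 9.99 and 9.91 at the same ages. The depots overlapped at 6 months, where bone marrow replicate 1 alone was low, and stood fully apart at 14 and 18 months. Over the ages G0s2 was 1.38-fold lower in bone marrow (-0.46 ± 0.123, SE, adjusted p = 0.00301), under the fold limit. By age the difference was 0.01 at 6 months (adjusted p = 0.969), -0.42 at 14 months (0.124) and -0.98 at 18 months (6.77e-04). At 6 months the sign depended on the scaling: with arrays centred on ribosomal protein genes the difference was -0.85 (adjusted p = 2.99e-04), and without bone marrow replicate 1 it was 0.36 (0.0628). At 14 months it was -0.42 with an adjusted p of 0.0159 without that array.

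Lipe, which cleaves diacylglycerol, showed the widest gap of the 6 genes. Its signals in bone marrow were 7.56, 7.76 and 7.49 at 6 months, 8.04, 7.87 and 7.82 at 14 months and 7.39, 7.25 and 7.32 at 18 months, against 12.16, 12.27 and 12.24, then 11.89, 12.08 and 12.08, then 12.45, 12.37 and 12.31 in epididymal adipocytes at the same ages. Over the ages it was 24.2-fold lower in bone marrow (-4.60 ± 0.0612, SE, adjusted p = 1.01e-20), with differences of -4.62, -4.11 and -5.06 at 6, 14 and 18 months.

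Mgll, which completes the breakdown, had 8.16, 8.43 and 8.35 at 6 months, 8.13, 8.23 and 8.06 at 14 months and 8.63, 8.62 and 8.47 at 18 months in bone marrow. In epididymal adipocytes it had 11.83, 11.91 and 11.81 at 6 months, 11.54, 11.78 and 11.83 at 14 months and 12.02, 11.94 and 11.83 at 18 months. It was 11.2-fold lower in bone marrow over the ages (-3.49 ± 0.0632, SE, adjusted p = 4.18e-19), with -3.54, -3.58 and -3.35 at 6, 14 and 18 months.

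Pde3b, which breaks down cAMP, had 8.06, 7.04 and 8.01 at 6 months, 8.17, 8.09 and 8.81 at 14 months and 7.98, 8.08 and 7.90 at 18 months in bone marrow adipocytes, against 11.39, 11.59 and 11.60, then 10.28, 10.59 and 10.77, then 11.16, 10.96 and 11.09 in epididymal adipocytes. The lowest bone marrow value, replicate 2 at 6 months, lay below all other bone marrow arrays. Pde3b was 8.19-fold lower in bone marrow over the ages (-3.03 ± 0.128, SE, adjusted p = 7.36e-14), and the gap was -3.83 at 6 months, -2.19 at 14 months and -3.09 at 18 months.

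**Figure D2:**
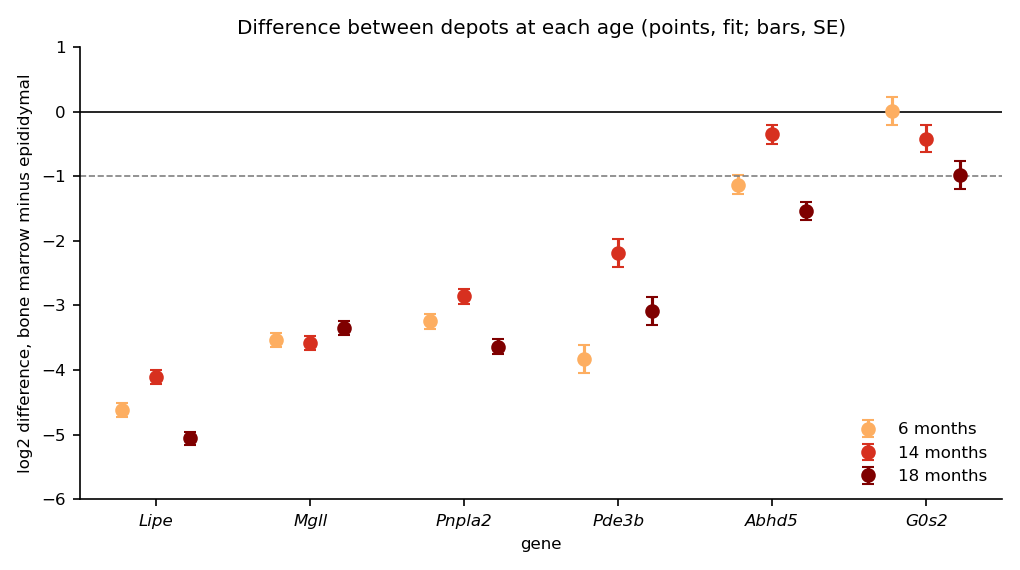
Log2 difference of bone marrow minus epididymal adipocytes for each lipolysis gene at 6, 14 and 18 months (points, limma estimate; bars, SE), with the dashed line at 2-fold lower. Lipe lies between -5.06 and -4.11 at the 3 ages, and G0s2 lies at 0.01 at 6 months and -0.98 at 18 months.

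The gaps were set against those of the 17 mature adipocyte markers, of which 9 also stand in the lists of lipolysis pathway genes used below. Of these markers 11 differed more than Lipe, 12 more than Mgll, 14 more than Pnpla2, 15 more than Pde3b, and all 17 more than Abhd5 and G0s2. When each array was expressed relative to the mean of its mature adipocyte markers, all 6 genes were higher in bone marrow, by 0.57 for Lipe, 1.68 for Mgll, 1.91 for Pnpla2, 2.13 for Pde3b, 4.16 for Abhd5 and 4.71 for G0s2 on the log2 scale. This scale puts 99.6% of all probe sets higher in bone marrow, with a median of 5.15, so the count says nothing particular about the lipolysis genes. All 6 lay under that median, as they did before, since the scale shifts every probe set alike.

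Age was examined in each depot. Over the 3 ages 4 of the 6 genes changed in bone marrow adipocytes at adjusted p under 0.05 (limma F test, 18.5% of all probe sets), namely Pnpla2 (adjusted p = 0.00125), Lipe (0.00241), Mgll (0.024) and G0s2 (0.0417). In epididymal adipocytes 4 of 6 changed (31.0% of all probe sets), namely Abhd5 (3.99e-05), Pde3b (0.00734), Pnpla2 (0.0174) and Lipe (0.0388). The contrasts of 14 and of 18 months with 6 months share the 6-month arrays. Single arrays decided some of these calls. In bone marrow Mgll lost its call without replicate 1 or 3 of 14 months or replicate 1 or 2 of 18 months (adjusted p of 0.0568 to 0.0863), G0s2 lost it without any 1 of 13 arrays (0.0509 to 0.116), Abhd5 passed without replicate 2 of 6 months (0.044), and Pde3b passed without replicate 1 or 3 of 6 months (0.0383 and 0.0488). In epididymal adipocytes Lipe lost its call without any 1 of 9 arrays (0.0502 to 0.16, the highest without replicate 1 of 14 months) and Pnpla2 without replicate 2 or 3 of 6 months or replicate 1 of 14 months (0.0542 to 0.0756).

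In bone marrow none of the 6 genes passed between 14 and 6 months by limma, where 3.58% of all probe sets were lower and 5.08% higher; 2 of the 6 had an unadjusted p under 0.05, and 1 passed in an ordinary analysis of variance. This count hung on single 6-month arrays of bone marrow: without replicate 1 G0s2 was at -0.70 (adjusted p = 0.00804) and Pde3b at 0.84 (0.0312), without replicate 2 Lipe was at 0.39 (0.0343), and without replicate 3 Pde3b was at 0.81 (0.033). These are only the omissions that gained a call, and others shrink the change. For Pde3b replicate 2 was the low array (7.04, against 8.06 and 8.01), so its rise is smaller without that array. For G0s2 replicates 2 and 3 were the high ones (9.90 and 10.13, against 8.98), so its fall is smaller without either. Pnpla2 was lower at 18 than at 6 months by -0.63 ± 0.115 (SE, adjusted p = 0.00309) and lower than at 14 months by -0.58 (0.00226), with no 18-month array within the range of the younger ones. The call against 6 months was lost when the compared groups were fitted alone (adjusted p = 0.119). Lipe was lower at 18 than at 14 months by -0.59 ± 0.106 (SE, adjusted p = 9.81e-04), whereas its difference of 18 minus 6 months, -0.28, did not pass (0.106), and its 6-month arrays lay between those of 14 and 18 months. Mgll moved the other way, 0.43 ± 0.109 higher at 18 than at 14 months (SE, adjusted p = 0.0119), though without bone marrow replicate 3 at 14 months that was 0.40 with an adjusted p of 0.058.

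G0s2 was lower in bone marrow at 18 than at 6 months by -0.77 ± 0.212 (SE, adjusted p = 0.031), a call that was lost without replicate 2 or 3 at 6 months (adjusted p = 0.0975 and 0.0894) or without any one of the 3 arrays of 18 months (0.0748 to 0.0921). Abhd5 was at -0.43 for 18 minus 6 months (adjusted p = 0.0744, though 0.0388 without bone marrow replicate 2 of 6 months and 0.0394 without epididymal replicate 1 of 14 months) and Pde3b at 0.66 for 14 minus 6 months (0.0748), and neither passed on all arrays. Thus 2 of 6 genes were lower at 18 than at 6 months and none higher, where 5.13% of all probe sets were lower and 3.37% higher. Between 18 and 14 months 2 of 6 were lower and 1 higher, where 8.23% of all probe sets were lower and 4.75% higher.

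These changes in marrow came beside changes of other genes in the same arrays. Between 18 and 6 months 4 of the 17 mature adipocyte markers were lower in bone marrow and 1 higher (median -0.30), and 8 of 10 endothelial markers were lower. The mean of the erythroid markers was 10.94 to 11.08 at 18 months, against 10.2 to 10.55 at 6 months. That of the neutrophil markers was 11.39 to 11.45, against 11.88 to 12.07. Between 18 and 14 months, the ages of the Lipe and Mgll calls, the mean of the B-lineage markers in marrow was 7.50 to 7.90 at 18 months, against 8.69 to 9.03 at 14 months, and that of the erythroid markers 10.94 to 11.08, against 9.98 to 10.23, both apart. Apart too were the neutrophil markers (11.39 to 11.45, against 11.57 to 11.71) and the T and NK cell markers (6.06 to 6.33, against 6.43 to 6.67). The megakaryocyte and platelet markers were at 9.81 to 10.22 and 8.65 to 9.90, which overlap. The mean of the mature adipocyte markers was 6.43 to 6.87 at 6 months, 6.45 to 6.64 at 14 months and 6.32 to 6.38 at 18 months. In marrow several of these markers lay near or under the array medians, among them Lep, Cidec, Aqp7 and Acvr1c. Their mean is therefore a limited measure of adipocyte content. Relative to the mean of these markers Pnpla2 was at 2.77, 2.55 and 2.71 at 6 months, 2.69, 2.79 and 2.86 at 14 months and 2.41, 2.27 and 2.44 at 18 months, so the 18-month arrays lay below the others on this scale. Lipe was at 0.83, 0.89 and 1.05 at 6 months, 1.40, 1.40 and 1.37 at 14 months and 1.06, 0.89 and 0.94 at 18 months, so that on this scale 14 months stood above the other ages, which overlapped. The part of cell composition in these changes was not tested.

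In epididymal adipocytes every call between a pair of ages involved the 14-month arrays. Abhd5 was lower at 14 than at 6 months by -0.97 ± 0.145 (SE, adjusted p = 8.46e-05) and higher at 18 than at 14 months by 0.95 (6.70e-05), so that its arrays of 6 and 18 months overlapped (difference -0.02). Pde3b was lower at 14 than at 6 months by -0.98 ± 0.222 (SE, adjusted p = 0.00398), and its difference of 18 minus 14 months, 0.52, did not pass (adjusted p = 0.10). The latter did pass with arrays centred on their medians (0.71, adjusted p = 0.0213) or on ribosomal protein genes (0.74, 0.033). It also passed with array weights (0.0206), in the compared groups alone (0.0116) and without bone marrow replicate 2 of 6 months (0.0229). Pnpla2 was lower at 14 than at 6 months by -0.45 ± 0.115 (SE, adjusted p = 0.00964), but without replicate 1 of 14 months by -0.35 (0.0719). Lipe was higher at 18 than at 14 months by 0.36 (adjusted p = 0.0174), a call lost without epididymal replicate 1 of 14 months (0.29, 0.0907) or of 18 months (0.32, 0.0811).

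In counts, 3 of 6 genes were lower at 14 than at 6 months in epididymal adipocytes and none higher, where 7.51% of all probe sets were lower and 10.2% higher. Between 18 and 14 months 2 of 6 were higher, against 11.7% of all probe sets. Between 18 and 6 months none passed by limma and none in an ordinary analysis of variance, 1 of 6 had an unadjusted p under 0.05, and 8.01% of all probe sets were lower and 8.22% higher. The arrays of these ages did not overlap for Pnpla2 (-0.24, adjusted p = 0.163), Pde3b (-0.45, 0.181) and Lipe (0.15, 0.363). The share of all probe sets without such overlap was not computed, so nothing is read from it. Pde3b passed when the compared groups were fitted alone (0.0114) and with array weights (-0.50, 0.0251), and Pnpla2 passed with array weights (-0.28, 0.0267).

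The epididymal arrays of 14 months also differed in markers of other cells. At 14 against 6 months 11 of 14 macrophage and monocyte markers were higher and 1 lower (median 2.16), 9 of 10 fibroblast and progenitor markers were higher (median 1.55), and so were all 6 mesothelial and 6 of 10 endothelial markers. C1qa, a complement gene of macrophages, averaged 10.59 at 14 months, against 8.10 at 6 months. Of the 17 mature adipocyte markers, 2 were lower (Adig and Acvr1c) and the median was -0.26. Relative to the mean of those markers Abhd5 was at -0.66, -0.68 and -0.56 at 6 months, -1.53, -1.23 and -1.23 at 14 months and -0.88, -0.69 and -0.62 at 18 months, so that 14 months stood below the other ages, which overlapped. Pde3b was at -0.33, -0.18 and -0.14, then -1.04, -0.90 and -0.85, then -0.72, -0.85 and -0.69 at the same ages, with both older groups below the youngest. Pnpla2 was at 0.78, 0.91 and 0.91, then 0.64, 0.78 and 0.63, then 0.55, 0.50 and 0.56, so on this scale its lowest arrays were those of 18 months, while the groups of 14 and 6 months touched. For Lipe the arrays of 14 months (0.57, 0.60 and 0.47) and of 18 months (0.57, 0.56 and 0.53) overlapped on this scale. Without epididymal replicate 1 at 6 months, which carried neutrophil transcripts, the 14-month differences were -0.99 for Abhd5 (adjusted p = 3.79e-04) and -1.05 for Pde3b (0.00799). Without epididymal replicate 1 at 14 months they were smaller, -0.79 for Abhd5 (adjusted p = 6.06e-04) and -0.85 for Pde3b (0.0291). That array had the highest mean of the macrophage markers (9.49) and the lowest of the mature adipocyte markers (11.32) in its group. The part of other cells in these changes was not tested further.

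**Figure D3:**
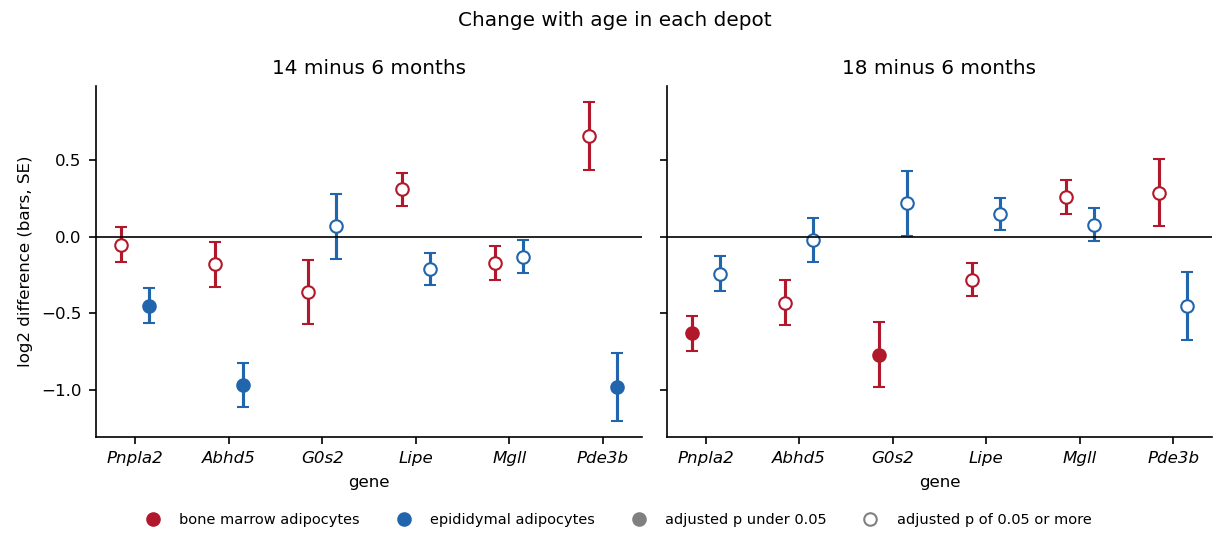
Log2 change with age in each depot for the 6 lipolysis genes, 14 minus 6 months on the left and 18 minus 6 months on the right (points, limma estimate; bars, SE; filled points have an adjusted p under 0.05). In epididymal adipocytes (blue) Abhd5 and Pde3b lie at -0.97 and -0.98 at 14 months, and in bone marrow (red) Pnpla2 and G0s2 lie at -0.63 and -0.77 at 18 months.

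**Figure D4:**
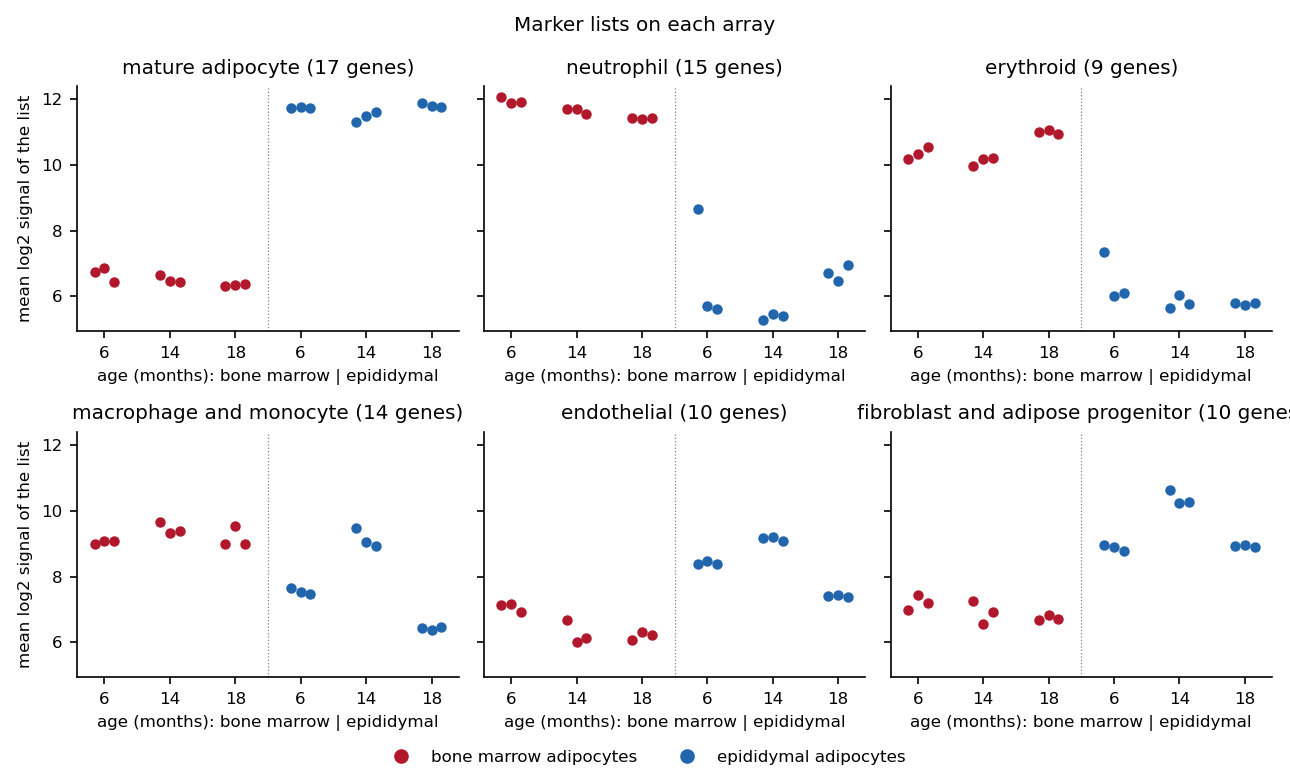
Mean log2 signal of 6 marker lists on each array, bone marrow in red on the left and epididymal in blue on the right of each panel, by age in months, with 1 point for each array. The mature adipocyte markers lie at 6.32 to 6.87 in bone marrow and 11.32 to 11.89 in epididymal adipocytes, and the epididymal macrophage markers peak at 14 months.

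Whether the age changes differed between the depots was tested directly. The interaction passed for 4 of the 6 genes (limma F test, 20.4% of all probe sets), namely Lipe (adjusted p = 5.43e-04), Abhd5 (0.00108), Pde3b (0.00327) and Pnpla2 (0.00617). G0s2 had 0.0621 and Mgll 0.535. For the change between 14 and 6 months 3 of 6 were higher in bone marrow than in epididymal adipocytes (5.07% of all probe sets): Pde3b by 1.64 ± 0.314 (SE, adjusted p = 0.00162), Abhd5 by 0.78 ± 0.205 (0.016) and Lipe by 0.52 ± 0.15 (0.03). The Lipe call was lost without bone marrow replicate 3 or epididymal replicate 2 or 3 of 6 months, or without replicate 1 of 14 months of either depot (adjusted p of 0.0543 to 0.0862), and that of Abhd5 when the compared groups were fitted alone (0.0566). The Lipe call was also lost in that fit (0.0879) and with the replicate number as a block (0.0809). The change of Pde3b itself was 0.66 in marrow, against -0.98 in epididymal adipocytes, that of Abhd5 -0.18 and -0.97, and that of Lipe 0.31 and -0.21. For the change between 18 and 6 months only G0s2 passed, with -0.99 ± 0.3 (SE, adjusted p = 0.048, 5.02% of all probe sets lower). The call was lost without any 1 of 16 of the 18 arrays (adjusted p up to 0.117) and with the replicate number as a block (0.094). Its own change was -0.77 in marrow, against 0.22 in epididymal adipocytes. Without bone marrow replicate 1 at 6 months the G0s2 value was -1.34 (adjusted p = 5.21e-04), and without replicate 2 or 3 of that group it was -0.88 (0.0926) or -0.76 (0.0847). The interaction F test also passed for 13 of 14 macrophage and monocyte, all 10 endothelial, all 10 fibroblast and progenitor and all 6 mesothelial markers. It passed for 6 of 17 mature adipocyte and 2 of 15 neutrophil markers. Here a change within adipocytes and a change in the mix of cells cannot be told apart.

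Ordered by level, the 6 groups of Pnpla2 and Lipe had the 3 bone marrow groups at the bottom, and so did Mgll and Pde3b. The lowest group was bone marrow of 18 months for Pnpla2, Lipe, Abhd5 and G0s2, bone marrow of 14 months for Mgll and bone marrow of 6 months for Pde3b. Overlap of the arrays of neighbouring groups, or its absence, is a description of ranges and not a test. Its share over all probe sets was not computed, so nothing is read from it. Neighbours whose arrays overlapped were bone marrow of 14 and 6 months for Pnpla2, Mgll and Abhd5, bone marrow of 6 and 18 months for Pde3b, bone marrow of 6 and epididymal adipocytes of 14 months for Abhd5, epididymal adipocytes of 18 and 6 months for Abhd5, and all epididymal neighbours of Mgll. For Lipe no neighbouring groups overlapped. For G0s2 only bone marrow of 18 months stood clear of the group above it.

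The genes most like each lipolysis gene were ranked by Pearson correlation over the 18 arrays after each depot's mean was removed, as a description only, since the arrays share groups and pools. Nearest to Pnpla2 were Tle3 (r = 0.94), Trp53i13 (0.91) and Samd4b (0.89). Nearest to Lipe were Phyh (0.91), H2-Q10 (0.91) and Snrk (0.90), and to Mgll Dhrs4 (0.95), Eif2ak1 (0.88) and Psma5 (0.88). Abhd5 had Slc25a35 (0.92), Gpd2 (0.92) and Apcdd1 (0.91), Pde3b had Homer1 (0.95), Pvr (0.94) and Mt2 (0.87), and G0s2 had weaker matches in Kcnj14 (0.84), Mir466 (0.84) and 4930448K20Rik (0.79). None of the lipolysis genes was among the 3 nearest of another.

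The rest of the pathway was read from lists of droplet proteins and other lipases, product handling, receptors and their signalling, phosphodiesterases, insulin signalling and regulators of lipase genes. Counts are of genes past the 2-fold call, which 11.6% of all probe sets met as lower and 10.2% as higher. Of 16 other lipases and droplet proteins, 11 fell at least 2-fold below the epididymal level in marrow and none rose (median -3.30). Cidec, which fuses droplets, had a fitted difference of -7.47 ± 0.113 (SE), with mean signals of 5.64, 5.31 and 5.5 in bone marrow at 6, 14 and 18 months against 13.03, 12.85 and 12.99 in epididymal adipocytes. Plin1, which holds Abhd5 at the droplet in the basal state, was at -6.64 ± 0.132 (SE, adjusted p = 1.41e-18). All 7 genes of product handling were lower by at least 2-fold (median -5.11), among them the glycerol channel Aqp7 at -6.53 and Pck1, which feeds glycerol back into triglyceride, at -6.32. The marrow means of Cidec, Aqp7 and Pck1, and of Acvr1c, Tshr and Npr3 below, lay near or under the array medians of 5.33 to 5.65. No detection calls were used here, so a signal above background in marrow is not shown for these genes and their fitted differences do not give a measured size.

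Receptors and their signalling steps were mixed. Of 19 genes of the stimulatory chain 9 were at least 2-fold lower in marrow and 1 higher (median -0.75). The lower genes included Acvr1c at -7.09, an activin receptor known to restrain lipolysis in spite of its place in this list, and the thyrotropin receptor Tshr at -5.64. Adcy7, an adenylyl cyclase of blood cells, was higher at 1.36, and Adcy2 was higher at 0.97, under the fold limit. Of 13 inhibitory receptors and G proteins 7 were at least 2-fold lower and 2 higher (median -1.39): the natriuretic clearance receptor Npr3 was at -7.78 and the inhibitory G protein subunit Gnai1 at -6.32, whereas Rgs2, a regulator of G-protein signalling, was at 3.74 and Hcar2, the niacin receptor, at 2.80.

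Of 14 other phosphodiesterases 1 was lower by at least 2-fold (Pde7a at -1.44) and 2 were higher, Pde5a at 2.24 and Pde4b at 1.92, with a median of 0.17, counts near the shares over all probe sets, so nothing is read from them. Of 10 genes of the insulin arm 4 were at least 2-fold lower and none at least 2-fold higher (median -0.53), among them Irs1 at -2.45 and Akt2 at -1.75, while Akt1 was higher at 0.84, under the fold limit. Of 11 regulators of lipase genes 6 were at least 2-fold lower and 3 higher (median -1.04): Cebpa at -3.23 and Pparg at -2.82, both adipocyte transcription factors, against Irf4 at 1.78 and Cebpb at 1.36. The higher genes came beside the higher markers of blood cells given above, whose part was not tested.

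**Figure D5:**
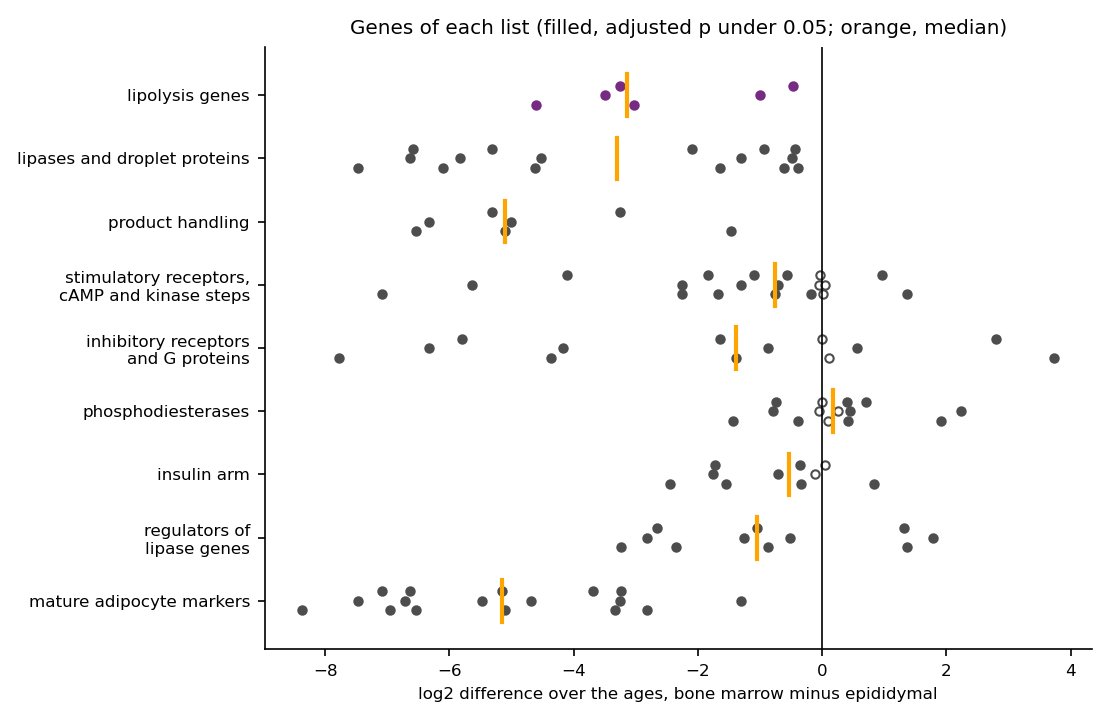
Log2 difference of bone marrow minus epididymal adipocytes over the ages for every measured gene of each list, with 1 point a gene (filled, adjusted p under 0.05), the orange bar at the list's median and the 6 lipolysis genes in the top row. The lipolysis genes have a median of -3.14, droplet proteins -3.30, mature adipocyte markers -5.16 and phosphodiesterases 0.17.

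Some pathway genes were named because they had the largest age changes of their lists among genes with a called interaction. Several of them exceeded every age change of the 6 lipolysis genes, which that choice makes likely. Hilpda, a hypoxia-induced droplet protein that inhibits Pnpla2, averaged 7.65, 7.80 and 6.89 in bone marrow, against 10.25, 7.08 and 6.84 in epididymal adipocytes at 6, 14 and 18 months. It thus fell in epididymal adipocytes at both older ages, with -3.17 at 14 months (adjusted p = 1.59e-08) and -3.41 at 18 months, and the interaction passed at both ages (3.31 and 2.65). Irs2, an adaptor of the insulin receptor, differed at 14 from 6 months by 0.97 in marrow (higher) and by -2.09 in epididymal adipocytes (lower). Hcar2 was lower in epididymal adipocytes at 14 months by -3.41 and in bone marrow at 18 months by -2.09. The carboxylesterase Ces1f was at -1.76 in epididymal adipocytes at 14 months and at -0.31 at 18 months (adjusted p = 0.174).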

How the data were processed

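Whole-transcript arrays for mouse genes (Affymetrix) were read from each pool. According to the study's methods the authors processed the scans in Partek by gcRMA with quantile normalization, and the log2 signals they deposited entered all tests without change. The legend of the study's supplementary figure names RMA instead, and which of these gave the signals was not resolved. Array annotation named a gene for 23410 of 35556 probe sets (1621 of these name several genes), and all of these were fitted together with 6 group means (limma 3.58.1 in R 4.3.3). Contrasts were bone marrow minus epididymal adipocytes, older minus younger, and their interaction. The Benjamini-Hochberg adjustment ran over all probe sets of a contrast; calls need an adjusted p under 0.05 and, between depots, a 2-fold difference, as in the study. The fit was tested on simulated data. Probe sets of different genes are not compared in level, and the number of arrays limits the precision. The genes and lists were chosen with earlier results of these data known. Named pathway genes are, for each list, up to 2 called lowest and 2 highest between the depots and up to 2 with the largest age change among genes with a called interaction. Both depots came from the same mice per the study, but replicate numbers were not shown to pair the pools. Promoter sequences are from RefSeq (GRCm38.p6). Raw scans were not used here.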

Additional observations from a re-analysis of the deposited data

Results flagged for a closer look

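In 4 instances the age change of a lipolysis gene differed between the depots by a test of the difference itself. Between 14 and 6 months the change in bone marrow adipocytes exceeded that in epididymal adipocytes by 1.64 for Pde3b, by 0.78 for Abhd5 and by 0.52 for Lipe on the log2 scale; the Lipe call was lost without any 1 of 5 arrays, with array weights, when only the groups compared were fitted, and with the replicate number as a block (adjusted p = 0.0809). Between 18 and 6 months the change of G0s2 in bone marrow was lower than that in epididymal adipocytes, with a difference of -0.99. That call was lost without any 1 of 16 of the 18 arrays and in 7 other settings, and the interaction F test of G0s2 did not pass (adjusted p = 0.0621).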

How the results depend on the processing

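Over 114 comparisons of single lipolysis genes, 3264 values were computed under the alternatives, of which 3129 kept their direction and their side of the threshold, 82 lost the call, 52 gained one and 1 turned, namely G0s2 between the depots at 6 months with arrays centred on ribosomal protein genes (-0.85). Over 105 comparisons of named pathway genes, 238 of 3010 values lost the call, 1 gained one and none turned. The counts of the depot difference over the ages and at 6, 14 and 18 months and of the difference relative to the markers stayed within 1.5 times. Counts of lipolysis genes passing moved most for age. In bone marrow the F test (4) gave 2 when the compared groups were fitted alone and 2 at an adjusted p under 0.01, 14 minus 6 months (0) gave 1 in an ordinary analysis of variance and 1 with array weights, and 18 minus 6 months (2) gave 1 with median centring, with all probe sets, in the ordinary analysis of variance and at 0.01, and 0 in the compared groups alone. In epididymal adipocytes the F test (4) gave 2 at 0.01, 14 minus 6 months (3) gave 5 with ribosomal centring, 18 minus 6 months (0) gave 2 with array weights and 1 in the compared groups alone, and 18 minus 14 months (2) gave 5 with median centring, 4 with ribosomal centring and 1 at 0.01. The interaction at 14 months (3) gave 1 in the compared groups alone and 1 at 0.01. The interaction at 18 months (1, G0s2) gave 0 with repeated quantile normalization, median centring, ribosomal centring, all probe sets, the compared groups alone, the replicate block and at 0.01, and 2 with array weights. Leaving out 1 array at a time gave 2 to 5 (F test in bone marrow), 0 to 2 (14 minus 6 months), 1 to 3 (18 minus 6) and 2 to 4 (18 minus 14) there, and 2 to 4, 2 to 3, 0 to 0 and 1 to 3 in epididymal adipocytes; the interaction gave 4 to 5, at 14 months 2 to 4 and at 18 months 0 to 2. The causes of these moves were not tested.

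Replicate numbers were checked for pairing: of 9 correlations between same-numbered arrays of the depots, -0.136 to 0.153, only 1 was over 0.1. With the replicate number as a block the interaction at 14 months gave 2 genes, Lipe being lost (0.52, adjusted p = 0.0809), that at 18 months gave 0, and no other call of a lipolysis gene changed. No measured lipolysis gene has another probe set of its own, so that alternative was not run, and array weights stopped short of full convergence. Scaling alternatives were not applied to values relative to the markers. With 3 pools a group, small age changes are at the limit of what these arrays resolve, as the calls of G0s2 at 18 months and Lipe at 14 months show.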

Other observations

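Some pathway genes, several of them named above for the depot difference, also changed with age. Among phosphodiesterases, Pde4b was higher at 14 than at 6 months in bone marrow by 0.80 and lower in epididymal adipocytes by -0.51, and it was lower in epididymal adipocytes at 18 months by -1.50. Pde7b was higher in epididymal adipocytes at 18 months by 1.43, against -0.30 in bone marrow (adjusted p = 0.265), and the interaction was -1.73. Pde5a was lower in bone marrow at 14 months by -1.19.

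Among regulators of lipase genes, Irf4 was higher in bone marrow at 14 months by 1.39, where 8 of 11 B-lineage markers were higher too (median 0.99), and lower in epididymal adipocytes at 18 months by -1.85. Cebpb was higher in bone marrow at 14 months by 0.84 and lower in epididymal adipocytes by -1.30. Fabp5, a fatty acid binding protein, was lower in bone marrow at 18 months by -0.79 and higher in epididymal adipocytes by 1.16, with an interaction of -1.95. Adcy7 and Npr1 were higher in epididymal adipocytes at 14 months by 1.56 and 1.42, in the same arrays in which macrophage and endothelial markers were higher, and the part of those cells was not tested.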
